A study of Mus musculus with 24 samples.

Results

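The furan response in livers fixed in formalin for 18 h was read from 8 libraries, 4 of furan-dosed and 4 of control animals, out of 24 labelled samples in the whole series. The furan columns carry the animal numbers 41, 42, 43 and 44, the control columns the numbers 2, 3, 4 and 6, and every gene of the table was used, 24015 in all. The furan group was gavaged daily for 21 days with furan in corn oil, at 8 mg per kg of body weight. The control group was given the oil without furan. All were female B6C3F1 mice, 5 to 6 weeks old per the labels, and were sampled 4 h past their final gavage. Livers were cut into 3 pieces, and the piece studied here spent 18 h in formalin before it was embedded in paraffin (FFPE). RNA came from 1 section of 10 µm per animal, with integrity numbers of 1.3 to 2.4 over all FFPE samples per the labels. Libraries were made from poly(A)-selected RNA. Each came from 1 animal, and the 4 animals of a group are its replicates. For comparison, the other pieces of these livers were a frozen piece of about 100 mg (3 furan and 3 control libraries used) and a piece fixed for 3 wk (4 furan and 4 control libraries, 2 sections each).

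Furan is a volatile compound formed in heated food and is toxic to the rodent liver. In hepatocytes the P450 enzyme CYP2E1 opens its ring to cis-2-butene-1,4-dial, a dialdehyde that binds glutathione, proteins and DNA bases. Reactive aldehydes of this kind modify the sensor KEAP1 and so free NRF2, the factor that drives glutathione and quinone detoxification genes. Damaged DNA stabilises p53, which switches on cell cycle arrest and death genes, and damaged protein frees HSF1, which switches on chaperones.

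Per the table, the furan libraries held 16269854, 17090762, 22494012 and 18465067 counts (animals 41, 42, 43 and 44) and the control libraries 16991744, 19315103, 16974133 and 16277165 counts (animals 2, 3, 4 and 6). Neither the totals (exact permutation test, two-sided p = 0.571, 4 against 4) nor the share of the ribosomal precursor Rn45s (p = 1, same test) separated the groups, and 0.0286 is the smallest p this design allows. Rn45s took 7.76% to 16.5% of counts in furan libraries and 6.42% to 7.22% in 3 control libraries, but 37.3% in control 6. Without control 6, every furan share lay above every control share, a mean difference of 3.72 points (exact permutation test, p = 0.114). The tissue label fits the hepatocyte markers, whose 16 genes summed to 153246 to 170781 CPM in furan livers and 144123 to 162037 CPM in control livers. Beside control 6, 3 libraries stood apart in other ways. Furan 41 had counts for 876 genes that no other library detected, against 51 to 200 in the rest, and for 156 olfactory receptor genes, against 4 to 17. Furan 44 held transcripts of skin, muscle and fat: Krt5 and Krtdap had 31 and 83 counts there and 0 in the other 7 libraries, and Acta1 had 291 counts, against 0 to 28. Control 2 held 53 counts of Alpi and 25 of Krt20, both at 0 elsewhere. Counts of calls were therefore also taken without furan 41, furan 44 and control 6 together, a choice made after seeing the data, and without each library in turn.

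Levels are counts in 1e+06 counts of the TMM-scaled library (CPM), listed in the order of animals 41, 42, 43 and 44 for furan and 2, 3, 4 and 6 for control. Changes are log2 of furan over control with the SE of the fit (written log2 x ± SE). A gene rose or fell where edgeR's quasi-likelihood test gave an adjusted p under 0.05 (Benjamini-Hochberg over 12832 tested genes). Where 8 values are given for a called gene, the 2 groups overlap only for Ddit3 and Serpina1e.

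After furan, 503 genes rose (3.92% of those tested) and 574 fell (4.47%), together 8.39%. Of these, 105 rose and 57 fell at least 2-fold. Calls in each gene list below are to be set against the shares of 3.92% and 4.47%. The median change was 0.53 on the log2 scale among risen and -0.51 among fallen genes, against -0.01 over all tested genes. In 1012 of the 1077 called genes the 4 furan values did not overlap the 4 control values, a separation shown by 2020 of all tested genes (15.7%), with furan higher in 1022 (7.96%) and lower in 998 (7.78%). An unadjusted p under 0.05 was reached by 3003 genes. The share called grew with level: 1.46% of 820 genes under 1 CPM, 7.12% of 4100 genes between 5 and 20 CPM, and 19.4% of 1149 genes at 100 CPM or more. The smallest called change was 1.65 on the log2 scale in the lowest of these bins and 0.24 in the highest. Without furan 41, furan 44 and control 6, 340 genes rose and 439 fell. Without furan 44 alone 298 rose and 335 fell, and without furan 43 alone 300 rose and 364 fell. Without control 6 alone the counts were higher, with 605 rises and 680 falls.

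**Figure D1:**
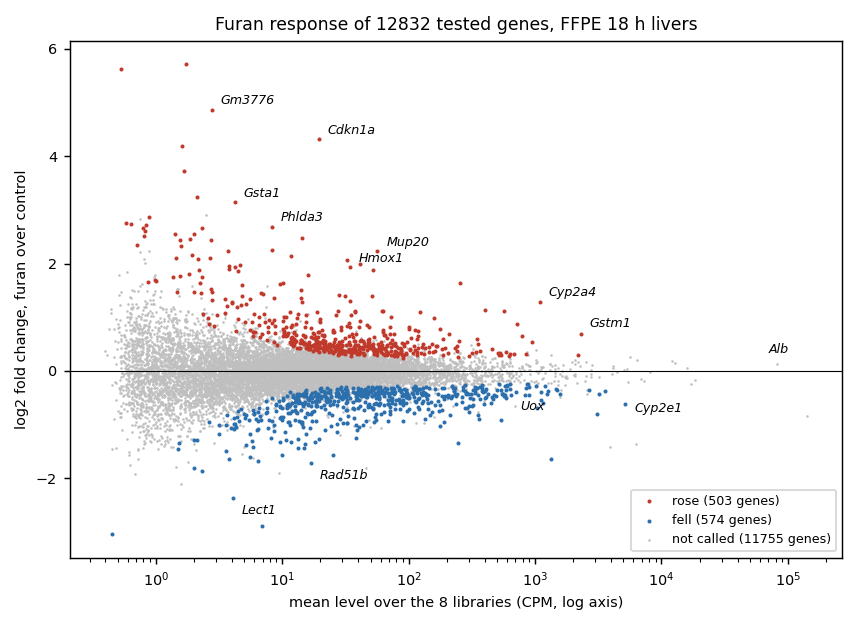
Log2 fold change (furan over control) against the mean level of the 8 libraries in CPM on a log axis, 1 point per tested gene. Red points are the 503 genes that rose, blue points the 574 that fell and grey points those not called; the largest rises, such as Cdkn1a, lie below 100 CPM, while Cyp2e1 and Gstm1 changed less on the log scale at levels above 1000 CPM.

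Genes of p53-driven arrest and feedback were higher after furan: 10 of 21 tested members rose and none fell, against 3.92% rises and 4.47% falls (8.39% called) among all tested genes, and the list's median was 0.81. The largest of these rises was in Cdkn1a, which encodes the cyclin-dependent kinase inhibitor p21. It stood at 35.5, 33.8, 43.7 and 35.8 CPM in furan and 2.003, 1.77, 2.09 and 1.501 CPM in control livers (log2 4.31 ± 0.14, adjusted p = 2.25e-09). The 4 furan values lay within 10 CPM of each other, and each was more than 30 CPM above every control value. Phlda3, a p53 target that restrains AKT, had 8.83, 12.1, 15.97 and 20.4 CPM in furan and 2.84, 1.52, 2.87 and 1.59 CPM in control livers (log2 2.69 ± 0.29, adjusted p = 0.000136). Ccng1, the p53 target cyclin G1, had 47.9, 49.2, 54.1 and 54.6 CPM in furan and 22.3, 24.2, 24.7 and 23.3 CPM in control livers (log2 1.12 ± 0.09, adjusted p = 2.16e-05). Zmat3, an RNA-binding p53 target, had 15.1, 13.3, 16.8 and 12.6 CPM in furan and 4.896, 4.28, 4.904 and 4.68 CPM in control livers (log2 1.62 ± 0.14, adjusted p = 2.78e-05). Mdm2, which encodes the ubiquitin ligase that degrades p53, had 51.6, 50.4, 61.1 and 52.3 CPM in furan and 32.4, 30.4, 27.7 and 21.6 CPM in control livers (log2 0.94 ± 0.12, adjusted p = 0.000503). Trp53inp1, a p53 cofactor, had 26.9, 22.6, 31.5 and 24.2 CPM in furan and 10.9, 12.6, 13.3 and 17.1 CPM in control livers (log2 0.98 ± 0.15, adjusted p = 0.00139). None of these 6 genes had overlapping groups. The remaining risen members were Plk2, Btg2, Sesn2 and Ddit4l, and the summed level of the 21 genes was 387 to 459.7 CPM in furan livers and 236 to 266 CPM in control livers. Leaving out any single library gave 9 to 11 rises, and 9 rose without furan 41, furan 44 and control 6.

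Of 14 tested genes of p53-linked apoptosis, 4 rose and 1 fell. Bax, the pore-forming death effector of mitochondria, had 45.9, 43.1, 51.8 and 49.4 CPM in furan and 24.8, 19.6, 25.6 and 22.1 CPM in control livers (log2 1.05 ± 0.11, adjusted p = 8.04e-05). Aen, a nuclease induced by p53, had 6.401, 6.52, 5.31 and 9.44 CPM in furan and 1.67, 1.18, 2.04 and 2.91 CPM in control livers (log2 1.86 ± 0.28, adjusted p = 0.00162). The receptors Eda2r and Tnfrsf10b (the mouse TRAIL receptor) were near absence in control livers: Eda2r had 1.66, 3.17, 3.61 and 3.81 CPM in furan and 0.278, 0, 0.276 and 0.0883 CPM in control livers, and Tnfrsf10b had 1.24, 1.98, 2.23 and 0.753 CPM in furan and 0.278, 0.147, 0.22 and 0.177 CPM in control livers (adjusted p = 0.000905 and 0.0042). Control values this low make the size of those folds depend on a few reads. Bmf, a pro-apoptotic BH3-only protein, went the other way, with 4.03, 4.55, 7.82 and 5.27 CPM in furan and 12.6, 11.3, 13.7 and 17.5 CPM in control livers (log2 -1.32 ± 0.21, adjusted p = 0.00209), so the changed members of this list hold death effectors with both signs.

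NRF2-linked antioxidant genes rose in 15 of 30 tested members, and none fell; the median was 0.58, with 26 members above 0. Srxn1, which encodes sulfiredoxin, the enzyme that restores oxidised peroxiredoxins, had 92.4, 59.8, 68.5 and 78.4 CPM in furan and 29.5, 29.1, 31.5 and 23.8 CPM in control livers (log2 1.39 ± 0.13, adjusted p = 5.28e-05). Txnrd1, thioredoxin reductase, had 145, 121, 123 and 123 CPM in furan and 69.5, 75.5, 71.97 and 71.97 CPM in control livers (log2 0.82 ± 0.08, adjusted p = 7.44e-05), with furan 41 above the other 3 furan livers. Ephx1, the microsomal epoxide hydrolase, had 562, 453, 585 and 607 CPM in furan and 253, 239, 281 and 233 CPM in control livers (log2 1.13 ± 0.10, adjusted p = 2.64e-05). Ugdh, which makes the UDP-glucuronate used in conjugation, had 100.3, 69.2, 87.4 and 86.1 CPM in furan and 36.7, 39.03, 39.2 and 42.4 CPM in control livers (log2 1.13 ± 0.11, adjusted p = 5.28e-05). Nqo1, the quinone reductase often read as the NRF2 marker, had 17.4, 14.97, 17.7 and 21.8 CPM in furan and 8.68, 10.1, 7.77 and 7.86 CPM in control livers (log2 1.06 ± 0.14, adjusted p = 0.000723). Osgin1, an oxidative stress growth inhibitor, had 495, 335, 409.7 and 299 CPM in furan and 197, 103, 122 and 73.7 CPM in control livers (log2 1.63 ± 0.24, adjusted p = 0.00138). The groups did not overlap, although control 2 stood near 200 CPM and the other control livers nearer 100. Hmox1, heme oxygenase 1, had 101, 27.4, 49.2 and 39.8 CPM in furan and 16.1, 11.4, 19.8 and 8.83 CPM in control livers (log2 1.94 ± 0.35, adjusted p = 0.00438). Its furan values spread widely, with furan 41 near 100 CPM and furan 42 under 30, and with robust dispersions its adjusted p was 0.0636. Htatip2 also rose (0.77 ± 0.09, adjusted p = 0.000219), and so did Gclc, Gsr, Pgd, G6pdx, Cbr1, Aox1 and Entpd5. The 32 genes of the list found in the table summed to 8118 to 9536 CPM in furan livers and 6915 to 7380.5 CPM in control livers. The rises numbered 14 to 17 with any 1 library left out and 14 without furan 41, furan 44 and control 6.

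The promoters of Srxn1, Osgin1 and the glutathione transferase gene Gstp1 are shown because each holds the letters TGAGTCAGC or their reverse complement, an antioxidant response element overlapping an AP-1 site (TGANTCA). The sequences are RefSeq windows of 250 bases before to 50 bases after the start (GRCm38), 5′ to 3′ on the gene's strand. Capitals mark every match to TGAGTCAGC, TGANTCA or a second form of the element, TGACNNNGC, on either strand. TGAGTCAGC itself does not match TGACNNNGC. Of these windows only that of Srxn1 held TGACNNNGC, at a separate place (GCTAGGTCA).
Srxn1 (chr2:152105274-152105573, plus strand): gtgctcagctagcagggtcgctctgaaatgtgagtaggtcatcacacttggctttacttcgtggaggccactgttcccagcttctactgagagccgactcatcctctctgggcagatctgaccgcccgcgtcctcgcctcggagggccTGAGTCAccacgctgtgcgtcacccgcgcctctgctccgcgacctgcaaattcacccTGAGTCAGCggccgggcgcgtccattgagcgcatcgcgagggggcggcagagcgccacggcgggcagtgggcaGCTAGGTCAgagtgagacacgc
Osgin1 (chr8:119436897-119437196, plus strand): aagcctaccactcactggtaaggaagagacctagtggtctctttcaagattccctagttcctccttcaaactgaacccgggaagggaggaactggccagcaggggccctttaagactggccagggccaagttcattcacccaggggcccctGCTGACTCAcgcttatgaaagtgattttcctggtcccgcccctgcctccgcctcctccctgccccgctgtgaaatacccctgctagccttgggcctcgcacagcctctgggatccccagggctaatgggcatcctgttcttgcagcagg
Gstp1 (chr19:4037863-4038162, minus strand): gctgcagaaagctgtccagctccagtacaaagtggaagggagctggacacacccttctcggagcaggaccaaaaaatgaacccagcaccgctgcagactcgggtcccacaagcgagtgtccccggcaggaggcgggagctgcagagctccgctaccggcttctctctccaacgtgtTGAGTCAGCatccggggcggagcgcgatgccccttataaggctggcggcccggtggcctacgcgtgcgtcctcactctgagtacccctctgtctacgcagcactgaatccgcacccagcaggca

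A promoter window was found for 396 risen, 436 fallen and 9667 tested genes. TGAGTCAGC occurred in 4 risen (1.01%), 5 fallen (1.15%) and 49 tested genes (0.507%), and in 0.481% of all 27025 genes of the promoter table. TGACNNNGC occurred in 17.2% of risen, 16.1% of fallen and 17% of tested genes, and TGANTCA in 8.59%, 8.72% and 6.49%. Among the 12 risen genes of the NRF2 list with a window, 6 held TGACNNNGC (Srxn1, Txnrd1, G6pdx, Pgd, Ugdh and Htatip2).

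Glutathione transferases, which join glutathione to reactive compounds, moved both ways: 5 of 21 tested genes rose and 2 fell. Gstm1 was the most abundant riser by CPM difference in the whole comparison, with 2832, 2649, 3021 and 2856 CPM in furan and 1748, 1608, 1848 and 1845 CPM in control livers (log2 0.69 ± 0.07, adjusted p = 0.000152). The alpha-class genes were low in control livers. Gsta1 had 7.65, 2.75, 9.203 and 10.7 CPM in furan and 0.389, 0.885, 1.21 and 0.971 CPM in control livers (log2 3.14 ± 0.42, adjusted p = 0.000723), and furan 42 was low among the furan livers. Gm3776, a near-identical neighbour of Gsta1, had 5.097, 2.33, 5.35 and 8.63 CPM in furan and 0, 0.0492, 0.496 and 0.177 CPM in control livers (log2 4.86 ± 0.64, adjusted p = 0.000585). Gsta2 had 24.3, 16.6, 22.9 and 18.9 CPM in furan and 4.51, 5.801, 8.93 and 10.2 CPM in control livers (log2 1.51 ± 0.22, adjusted p = 0.00128). Gstp1 had 90.9, 66.3, 83.8 and 76.5 CPM in furan and 50.8, 58.7, 51.4 and 37.9 CPM in control livers (log2 0.67 ± 0.13, adjusted p = 0.00708). Reads of these genes are hard to separate: 89.7% of the 50-nt words of the Gsta1 transcript, 92.5% of those of Gm3776 and 62.3% of those of Gstp1 also occur in another gene's transcript. Gstt2, of the theta class, had 131, 111, 99.04 and 116 CPM in furan and 158, 156, 163 and 177 CPM in control livers (log2 -0.52 ± 0.09, adjusted p = 0.0037), and Gstm6 was the other transferase that fell. A single fall was left without furan 42, furan 43, furan 44, control 2 or control 3.

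Enzymes that clear aldehydes and alcohols rose in 7 of 29 tested genes, and 1 fell. Aldh1a1, the cytosolic retinal and aldehyde dehydrogenase, had 1227, 994, 1082 and 1208 CPM in furan and 759, 813, 745 and 791 CPM in control livers (log2 0.54 ± 0.08, adjusted p = 0.00143). Aldh1b1, a mitochondrial aldehyde dehydrogenase, had 94.6, 88.2, 87.7 and 107 CPM in furan and 56.03, 61.3, 56.4 and 61.6 CPM in control livers (log2 0.68 ± 0.09, adjusted p = 0.000464). Adh1, the main liver alcohol dehydrogenase, differed less but without overlap, with 2364, 2458, 2416 and 2444 CPM in furan and 1989.8, 1853, 2042 and 1982 CPM in control livers (log2 0.30 ± 0.07, adjusted p = 0.0138). Aldh1a7 rose as well (0.69 ± 0.11, adjusted p = 0.00162). The member that fell was Adh7 (-0.64 ± 0.13, adjusted p = 0.0104; not called without furan 41, furan 44 and control 6), an alcohol dehydrogenase best known from the stomach. Without furan 43, and likewise without furan 44, 4 members of this list rose.

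Glucuronidation and sulfation genes changed in both directions, with 5 rises and 4 falls among 24 tested. Ugt2b35, a UDP-glucuronosyltransferase, had 164, 178, 161 and 166 CPM in furan and 83.2, 75.3, 76.2 and 76.4 CPM in control livers (log2 1.10 ± 0.07, adjusted p = 8.04e-06). Ugt2b5 and Ugt2b34 rose by 0.60 ± 0.10 and 0.47 ± 0.08 (adjusted p = 0.00361 and 0.00457). Ugt2b37 had 3.97, 7.36, 6.77 and 6.47 CPM in furan and 1.39, 3.097, 1.32 and 0.177 CPM in control livers (log2 1.96 ± 0.45, adjusted p = 0.0168), a call that ended without furan 43 (adjusted p = 0.0512). Ugt2a3 fell, with 91.7, 99.7, 85.1 and 93.6 CPM in furan and 132, 157, 143 and 153 CPM in control livers (log2 -0.66 ± 0.08, adjusted p = 0.000459). The sulfotransferase gene Sult1c2 had 10.1, 4.49, 6.41 and 5.92 CPM in furan and 16.6, 15.8, 17.4 and 17.7 CPM in control livers (log2 -1.33 ± 0.20, adjusted p = 0.00132). Without furan 43, 3 genes of this list rose. Carboxylesterases, which cleave esters of drugs and lipids, also split: Ces2e (0.79 ± 0.08) and Ces1g (0.57 ± 0.08) rose, and Ces1f (-0.504 ± 0.07), Ces1e (-0.70 ± 0.12), Ces2a (-0.47 ± 0.08) and Ces3a (-0.59 ± 0.14) fell, of 14 tested. The adjusted p of these 6 ran from 0.00012 (Ces2e) to 0.0181 (Ces3a). The call of Ces3a ended without furan 44, control 2 or control 3 (adjusted p = 0.0535 to 0.0565).

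**Figure D2:**
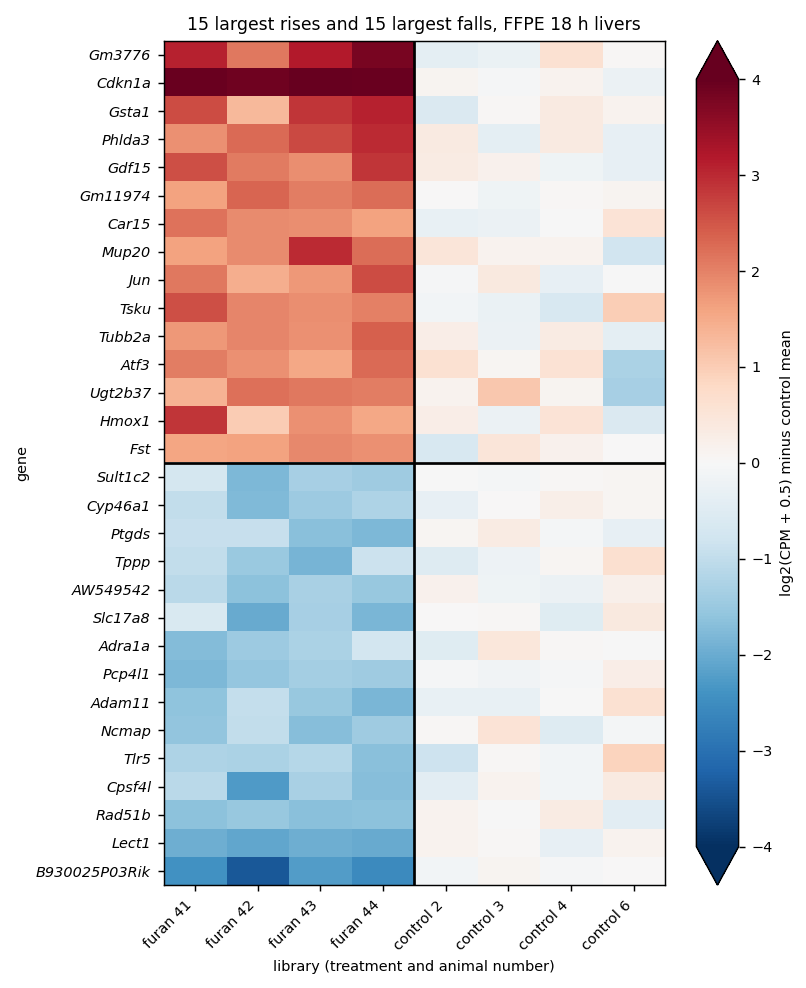
Level of the 15 genes with the largest rises (top) and the 15 with the largest falls (bottom) in each of the 8 libraries. Values are log2(CPM + 0.5) minus the mean of the control livers. Rows are genes and columns are animals, furan left of control. The genes were ranked among called genes with 5 CPM or more in 1 group and no overlap between furan and control livers. That rule fixed the separation of the groups in advance. It also left out larger called rises at lower levels, such as Mmp12 (log2 5.71). Every furan column is red in the upper block and blue in the lower block, Cdkn1a is the deepest red row, and Hmox1 is strongest in furan 41.

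Immediate early genes, which encode AP-1 and related factors, rose in 3 of 15 tested members. Jun, the AP-1 subunit, had 20.03, 12.6, 15.3 and 28.5 CPM in furan and 4.06, 5.75, 3.31 and 4.15 CPM in control livers (log2 2.14 ± 0.25, adjusted p = 0.000265). Atf3, its stress-induced partner, had 8.001, 6.76, 5.51 and 9.34 CPM in furan and 2.62, 1.67, 2.59 and 0.353 CPM in control livers (log2 1.98 ± 0.37, adjusted p = 0.00575). Jund had 48.2, 44.1, 39.6 and 47.1 CPM in furan and 28.7, 32.9, 29.5 and 30.6 CPM in control livers (log2 0.55 ± 0.09, adjusted p = 0.0029). Myc, which was chosen here after its values were seen, had 9.19, 5.27, 25.9 and 5.17 CPM in furan and 3.78, 3.15, 6.06 and 2.12 CPM in control livers (adjusted p = 0.0615), with furan 43 far above the other furan livers. Without furan 42, 6 immediate early genes rose, and without control 2, 5 rose. Of 14 MAP kinase phosphatases, 2 rose. Dusp6, the ERK phosphatase, had 47.5, 41.2, 43.1 and 49.2 CPM in furan and 23.5, 10.9, 16.9 and 17.4 CPM in control livers (log2 1.4 ± 0.18, adjusted p = 0.000464). Dusp8, which acts on JNK and p38, had 4.44, 3.47, 3.89 and 3.46 CPM in furan and 0.612, 0.295, 0.386 and 0.265 CPM in control livers (log2 3.25 ± 0.34, adjusted p = 0.000116).

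Chaperones of the heat shock response rose in 15 of 21 tested genes, and none fell. All 21 had a log2 change above 0, with a median of 0.42. Hsph1, the HSP110 nucleotide exchange factor, had 49.1, 40.2, 36.4 and 49.2 CPM in furan and 27.7, 22.9, 24.4 and 23.7 CPM in control livers (log2 0.82 ± 0.12, adjusted p = 0.000905). Bag3, an HSP70 co-chaperone, had 32.4, 32.2, 28.8 and 33.03 CPM in furan and 23.2, 23.9, 21.2 and 22.6 CPM in control livers (log2 0.47 ± 0.09, adjusted p = 0.00559). Hsp90ab1, the constitutive HSP90, had 531, 476, 521 and 561 CPM in furan and 422, 405, 392.5 and 359 CPM in control livers (log2 0.404 ± 0.08, adjusted p = 0.00687). Hspb1, the small heat shock protein HSP27 or HSP25, had 8.77, 9.64, 16.1 and 15.5 CPM in furan and 7.29, 2.999, 5.4 and 3.71 CPM in control livers (log2 1.36 ± 0.28, adjusted p = 0.00899), and Cacybp rose by 0.62 ± 0.11 (adjusted p = 0.00532). None of these 5 genes had overlapping groups, and the 22 genes of the list summed to 1593 to 1763 CPM in furan livers and 1239.8 to 1351 CPM in control livers. Their number depended on the libraries: 8 rose without furan 44, and 5 rose without furan 41, furan 44 and control 6.

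Hsph1 and Chordc1 were the 2 of 12 risen chaperone genes with a window that held a heat shock element, searched on both strands as the units GAA, TTC and GAA with 2 free bases between neighbours. It occurred in 1.26% of risen, 0.917% of fallen and 0.610% of tested genes. Capitals mark the matches, which in Chordc1 overlap each other.
Hsph1 (chr5:149636287-149636586, minus strand): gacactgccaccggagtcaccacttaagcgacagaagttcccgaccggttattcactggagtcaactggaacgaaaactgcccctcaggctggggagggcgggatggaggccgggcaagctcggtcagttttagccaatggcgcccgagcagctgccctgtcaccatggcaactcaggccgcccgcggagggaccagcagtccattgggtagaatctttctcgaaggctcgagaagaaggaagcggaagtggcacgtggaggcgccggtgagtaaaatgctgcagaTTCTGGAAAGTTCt
Chordc1 (chr9:18292017-18292316, plus strand): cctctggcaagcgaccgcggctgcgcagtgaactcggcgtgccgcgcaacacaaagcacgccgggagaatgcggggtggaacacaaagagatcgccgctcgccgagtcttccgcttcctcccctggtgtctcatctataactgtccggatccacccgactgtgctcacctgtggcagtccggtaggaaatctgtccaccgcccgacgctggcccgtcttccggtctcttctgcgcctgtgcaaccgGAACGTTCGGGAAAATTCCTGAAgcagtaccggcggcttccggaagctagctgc

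Tubulin genes, the subunits of microtubules, rose in 6 of 13 tested members, with a median of 0.66. Tubb2a had 54.3, 63.9, 58.8 and 86.9 CPM in furan and 19.5, 13.6, 20.6 and 12.3 CPM in control livers (log2 1.99 ± 0.18, adjusted p = 3.93e-05). Tubb4b had 45.2, 40.8, 49.3 and 58.5 CPM in furan and 24.6, 14.6, 21.99 and 17.7 CPM in control livers (log2 1.30 ± 0.16, adjusted p = 0.000368) and Tuba1c had 33.7, 36.4, 35.1 and 46.5 CPM in furan and 19.6, 14.6, 19.3 and 16.3 CPM in control livers (log2 1.12 ± 0.13, adjusted p = 0.000245). Tuba4a and Tuba1b rose by 0.66 ± 0.11 and 0.66 ± 0.14 (adjusted p = 0.00256 and 0.00925). Tubulin genes share long stretches, 49.6% of the 50-nt words of Tubb2a and 83.1% of those of Tuba1b with other genes, so how the rise divides among them is uncertain. The promoters of Tubb2a and Dusp8 each held the full palindrome TGACGTCA, the cyclic AMP response element that ATF and CREB factors bind, once in Tubb2a and at 2 places in Dusp8. The element was present in 3.79% of risen, 2.52% of fallen and 3.5% of tested genes. Capitals mark it.
Tubb2a (chr13:34077959-34078258, minus strand): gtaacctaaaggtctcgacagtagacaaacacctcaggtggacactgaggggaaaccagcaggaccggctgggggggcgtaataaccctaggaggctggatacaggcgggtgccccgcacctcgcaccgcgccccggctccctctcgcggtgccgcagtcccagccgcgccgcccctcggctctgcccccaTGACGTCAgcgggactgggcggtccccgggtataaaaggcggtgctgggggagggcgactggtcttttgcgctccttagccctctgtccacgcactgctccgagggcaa
Dusp8 (chr7:142095235-142095534, minus strand): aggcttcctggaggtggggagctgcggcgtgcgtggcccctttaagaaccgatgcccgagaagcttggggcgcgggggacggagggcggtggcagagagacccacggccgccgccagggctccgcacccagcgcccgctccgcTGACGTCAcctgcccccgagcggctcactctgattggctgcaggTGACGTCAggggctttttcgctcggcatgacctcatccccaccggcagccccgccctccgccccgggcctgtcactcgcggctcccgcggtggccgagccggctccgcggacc

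Among genes of the ER stress and amino acid response, 3 of 21 rose and 2 fell. Atf4, the factor at the head of this response, had 182, 178, 169 and 185 CPM in furan and 129, 114, 144 and 114 CPM in control livers (log2 0.51 ± 0.09, adjusted p = 0.00341). Asns, asparagine synthetase, had 1.07, 1.68, 1.26 and 1.46 CPM in furan and 0.111, 0.0983, 0.386 and 0.265 CPM in control livers (log2 2.66 ± 0.50, adjusted p = 0.00618). Ddit3, which encodes CHOP, had 15.8, 9.88, 15.7 and 15.6 CPM in furan and 9.57, 8.36, 9.97 and 10.95 CPM in control livers (log2 0.56 ± 0.16, adjusted p = 0.0498). Its groups overlapped, since furan 42 was at the control level, and its call ended without furan 41, furan 43, furan 44, control 2, control 3 or control 4 (adjusted p = 0.0942 to 0.136). Trib3 and Chac1, known targets of ATF4, fell (log2 -0.98 ± 0.25 and -1.004 ± 0.26, adjusted p = 0.031 and 0.033). The call of Trib3 ended without furan 42, furan 43, furan 44, control 2, control 3 or control 4 (adjusted p = 0.0656 to 0.0951) and with robust dispersions (0.0712), and that of Chac1 without furan 42, furan 44, control 2, control 3 or control 4 (adjusted p = 0.0573 to 0.0864).

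Secreted stress and growth signals rose in 6 of 21 tested members, and 2 fell. Gdf15, the stress cytokine that curbs appetite, had 28.03, 19.5, 16.7 and 33.98 CPM in furan and 5.45, 4.92, 3.75 and 3.27 CPM in control livers (log2 2.48 ± 0.23, adjusted p = 5.08e-05). Tsku, the liver-derived factor tsukushi, had 70.8, 46.1, 43.1 and 47.9 CPM in furan and 10.7, 9.54, 7.22 and 23.4 CPM in control livers (log2 2.07 ± 0.29, adjusted p = 0.000905), where control 6 was the highest control. Fst, follistatin, which binds activins, had 5.99, 6.11, 7.74 and 7.18 CPM in furan and 0.89, 2.51, 1.93 and 1.68 CPM in control livers (log2 1.94 ± 0.27, adjusted p = 0.000992). Fgf21, the fasting and stress hormone, had 29.8, 11.5, 9.53 and 11.3 CPM in furan and 4.17, 6.49, 3.69 and 5.48 CPM in control livers (log2 1.64 ± 0.34, adjusted p = 0.01). Furan 41 was far above the other furan livers. Lcn2, lipocalin 2, had 14.6, 33.6, 16.5 and 16.9 CPM in furan and 8.402, 11.1, 7.11 and 4.59 CPM in control livers (log2 1.36 ± 0.28, adjusted p = 0.0101), with furan 42 highest. Tnfrsf12a, the receptor of the cytokine TWEAK and the only riser of 12 YAP targets, had 24.5, 20.1, 30.4 and 23.5 CPM in furan and 8.402, 7.62, 5.896 and 6.45 CPM in control livers (log2 1.79 ± 0.15, adjusted p = 2.59e-05). Afp, alpha-fetoprotein, a gene of the fetal liver, had 4.62, 6.11, 6 and 6.88 CPM in furan and 2.95, 2.61, 3.03 and 3.62 CPM in control livers (log2 0.96 ± 0.21, adjusted p = 0.0121).

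No mitosis gene passed the test, although all 22 tested had a log2 change above 0 (median 0.80). Their summed level, over 24 genes, was 33.4, 40.8, 44.5 and 61.1 CPM in furan livers and 27.8, 34.5, 30.7 and 15.3 CPM in control livers, so the groups overlapped by 1 furan library, animal 41. These levels are low, and the adjusted p of Mki67, a proliferation marker chosen here after its values were seen, was 0.205 at 3.33 against 1.76 CPM. Among 21 genes of the G1/S transition and replication, Tk1, thymidine kinase, fell, with 17.1, 18.9, 21.2 and 24.4 CPM in furan and 36.9, 42.6, 35.4 and 45.9 CPM in control livers (log2 -0.97 ± 0.12, adjusted p = 0.000476). In 37 DNA repair genes there was 1 rise (2.7%) and there were 3 falls (8.11%), against 3.92% and 4.47% among all tested genes. Mgmt, which removes alkyl groups from guanine, had 27.4, 25.3, 22.7 and 29.3 CPM in furan and 17.2, 15.7, 16.9 and 16.2 CPM in control livers (log2 0.66 ± 0.10, adjusted p = 0.00183). Rad51b, a gene of homologous recombination, had 7.76, 8.56, 7.62 and 7.73 CPM in furan and 27.9, 24.9, 31.9 and 18.7 CPM in control livers (log2 -1.71 ± 0.15, adjusted p = 2.78e-05), with every furan value under 9 CPM and every control value above 18 CPM. Brca2 and Rad51d fell as well (log2 -0.75 ± 0.19 and -0.395 ± 0.11, adjusted p = 0.03 and 0.0402). The call of Brca2 ended without furan 41, furan 42, furan 44, control 2, control 4 or control 6 (adjusted p = 0.0503 to 0.0874), and that of Rad51d without furan 41, furan 42, furan 43, furan 44, control 2, control 3 or control 4 (adjusted p = 0.0613 to 0.118). Without furan 42, furan 44, control 2 or control 4, 1 repair gene fell.

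Cyp2e1, the P450 that oxidises furan, had 4466, 4138, 3753 and 3901 CPM in furan and 6768, 6053, 6272 and 5916 CPM in control livers (log2 -0.62 ± 0.08, adjusted p = 0.000464), the largest fall in CPM of any called gene. Among 39 P450 genes of drug and toxicant metabolism, 7 fell and 4 rose. Cyp2a4 rose, with 1563, 1303, 1658 and 1681 CPM in furan and 553, 597, 652 and 732 CPM in control livers (log2 1.29 ± 0.10, adjusted p = 2.16e-05). Cyp2a12 had 725, 671, 695 and 719 CPM in furan and 579.8, 579.6, 559 and 547 CPM in control livers (log2 0.31 ± 0.07, adjusted p = 0.0116). Cyp3a16, a gene of the young mouse liver, had 0.948, 4.01, 1.09 and 6.37 CPM in furan and 0.0556, 0.295, 0.496 and 0 CPM in control livers (log2 3.72 ± 0.79, adjusted p = 0.0117), with furan 42 and furan 44 above the other furan livers. Cyp2g1 fell (log2 -1.01 ± 0.18, adjusted p = 0.00426). Cyp1a2, the arylamine-oxidising P450, had 411, 391, 389 and 423 CPM in furan and 541, 462, 528 and 672 CPM in control livers (log2 -0.45 ± 0.10, adjusted p = 0.0153), a call that ended without furan 43 (adjusted p = 0.0541). The P450 falls were the less stable side: 3 without furan 42 or without furan 43, 4 without control 2 or without control 4, and 11 without control 6.

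Hepatocytes near the central vein express Cyp2e1, Cyp1a2 and glutamine synthetase, and 7 of 19 tested genes of this zone fell while 2 rose. Glul, glutamine synthetase, had 599.8, 620.3, 622 and 587 CPM in furan and 859.8, 758, 737 and 820.1 CPM in control livers (log2 -0.39 ± 0.07, adjusted p = 0.00569). Nr1i3, which encodes the nuclear receptor CAR, had 84.04, 65.1, 69.1 and 73.9 CPM in furan and 117, 99.6, 116 and 158 CPM in control livers (log2 -0.74 ± 0.13, adjusted p = 0.00372). Slc1a2, a glutamate transporter, fell too, and Aldh1a1 was 1 of the 2 rises. Without furan 43, 4 pericentral genes fell. Of 17 genes of the periportal zone, Pigr and Pck1 fell. Pigr, the receptor that carries immunoglobulin A into bile, had 2517, 2651, 1991 and 1857 CPM in furan and 3748, 3605, 4159.5 and 4118 CPM in control livers (log2 -0.79 ± 0.11, adjusted p = 0.000925). Pck1, the gluconeogenic enzyme PEPCK, had 968, 1232, 1095 and 956 CPM in furan and 1384, 1393, 1330.5 and 1583 CPM in control livers (log2 -0.42 ± 0.09, adjusted p = 0.0144), a call that ended without furan 44 (adjusted p = 0.0566). In bulk RNA fewer cells of a type and less RNA per cell cannot be told apart.

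Amino acid catabolism and the urea cycle had 7 falls and 3 rises among 30 genes. Bhmt, which remethylates homocysteine with betaine, had 999.6, 688, 714 and 713 CPM in furan and 401, 437, 277 and 331 CPM in control livers (log2 1.11 ± 0.15, adjusted p = 0.000674), furan 41 standing about 300 CPM above the others. Glud1, glutamate dehydrogenase, had 935, 930.1, 945 and 979 CPM in furan and 767, 778, 798 and 694 CPM in control livers (log2 0.32 ± 0.07, adjusted p = 0.0133). Prodh, proline dehydrogenase, had 162, 159, 159 and 137 CPM in furan and 283, 246, 217 and 347 CPM in control livers (log2 -0.82 ± 0.12, adjusted p = 0.00148). Hpd, of tyrosine breakdown, had 2905, 2714, 2506 and 2746 CPM in furan and 3468, 3556, 3455 and 4224 CPM in control livers (log2 -0.44 ± 0.08, adjusted p = 0.00689). Otc, of the urea cycle, had 284, 225, 231 and 227 CPM in furan and 331, 339.8, 333 and 290.0 CPM in control livers (log2 -0.42 ± 0.09, adjusted p = 0.0121), where furan 41 nearly met the lowest control, animal 6. The amino acid falls numbered 3 without furan 43, control 2 or control 3, and 4 without furan 42.

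**Figure D3:**
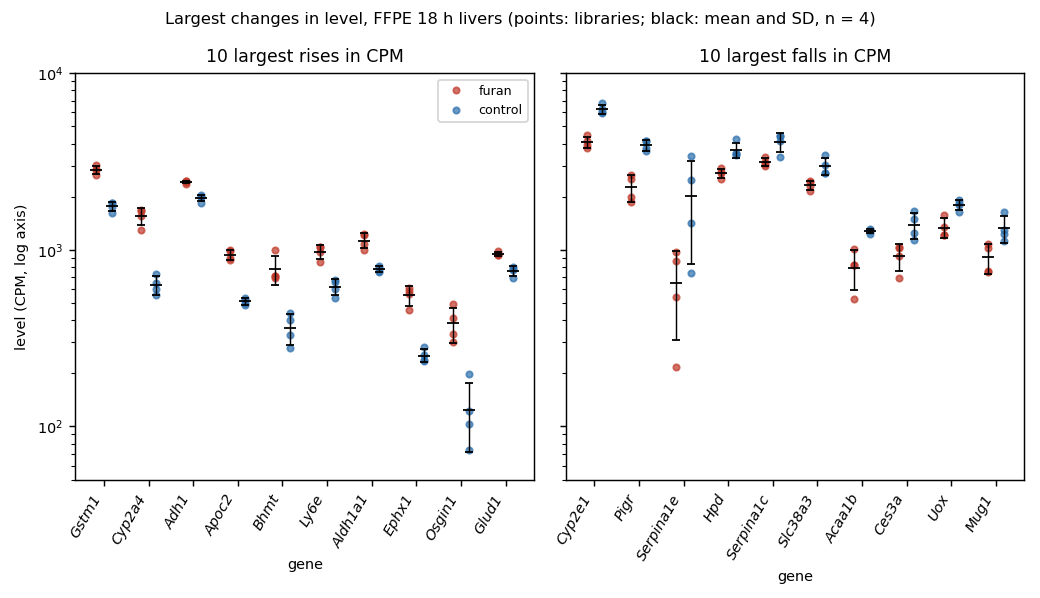
Level in CPM (log axis) of the 10 called genes with the largest rise (left panel) and the 10 with the largest fall (right panel) in CPM; points are the 4 libraries of each group, furan left of control, and black marks are the mean and SD. Furan values of Gstm1, Cyp2a4 and Cyp2e1 lie clear of control values, while those of Serpina1e spread over a wide range in both groups and overlap.

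Ranked by the difference in CPM, the 10 largest rises added up to 4751 CPM, and the 10 largest losses fell by 9570 CPM in sum. Apoc2, the activator of lipoprotein lipase, had 899, 874, 998 and 987 CPM in furan and 521, 532, 489 and 498 CPM in control livers (log2 0.88 ± 0.07, adjusted p = 2.16e-05). Ly6e, a surface protein, had 853, 1038, 1031 and 968 CPM in furan and 602, 661, 673 and 535 CPM in control livers (log2 0.65 ± 0.09, adjusted p = 0.000925). Serpina1e and Serpina1c, copies of the gene for alpha-1 antitrypsin, were lower: Serpina1e had 218, 863, 973 and 542 CPM in furan and 3420.3, 2479.8, 1412 and 736 CPM in control livers (log2 -1.63 ± 0.45, adjusted p = 0.0416). Serpina1c had 3065, 3147, 3346 and 2981 CPM in furan and 4386, 4424, 4106 and 3358 CPM in control livers (log2 -0.38 ± 0.09, adjusted p = 0.0222). The groups overlapped for Serpina1e, whose call ended without furan 41, furan 42, furan 43, furan 44, control 2, control 3 or control 4 (adjusted p = 0.0514 to 0.121). The copies share 35.6% (Serpina1e) and 79.3% (Serpina1c) of their words with other genes. Apoc2 shares 88.2% of its words with another annotated gene, Gm44805, so how its reads divide between them is uncertain. Slc38a3, a glutamine transporter, had 2439.6, 2429, 2299 and 2146 CPM in furan and 2719.6, 3036, 2736 and 3424 CPM in control livers (log2 -0.36 ± 0.09, adjusted p = 0.0234). Uox, urate oxidase, had 1576, 1218, 1349 and 1207 CPM in furan and 1637, 1847, 1791 and 1915 CPM in control livers (log2 -0.43 ± 0.09, adjusted p = 0.0136). Acaa1b, a peroxisomal thiolase, had 1012, 529, 818 and 816 CPM in furan and 1313, 1273, 1289 and 1225 CPM in control livers (log2 -0.68 ± 0.14, adjusted p = 0.0118), with furan 42 the lowest. Mug1, a plasma protease inhibitor, had 759, 1081, 1029 and 752 CPM in furan and 1639, 1298, 1232 and 1119 CPM in control livers (log2 -0.55 ± 0.14, adjusted p = 0.0283), and its highest furan values lay just below the lowest control. The call of Serpina1c ended without furan 44, control 2, control 3 or control 4 (adjusted p = 0.0545 to 0.0753), that of Slc38a3 without furan 43, furan 44 or control 3 (adjusted p = 0.0634 to 0.083), that of Uox without furan 44 (adjusted p = 0.0533) and that of Mug1 without furan 41, furan 44, control 2 or control 3 (adjusted p = 0.0623 to 0.0943). With robust dispersions the calls of Serpina1e and Mug1 ended too (adjusted p = 0.202 and 0.0546). Alb, the albumin gene, had 94198, 86310.5, 81469 and 81349 CPM in furan and 76556, 78819.6, 86278 and 73316 CPM in control livers (adjusted p = 0.384), so the most abundant hepatocyte transcript gave no call.

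Plasma proteins of complement and coagulation fell in 9 of 33 tested genes and rose in none; 29 of the 33 had a change below 0, and the list's median was -0.19. Proc, protein C, had 475, 465, 483 and 449 CPM in furan and 613, 653, 629.7 and 623 CPM in control livers (log2 -0.43 ± 0.06, adjusted p = 0.00148). F7, coagulation factor VII, had 88.9, 101, 82.7 and 87.4 CPM in furan and 129.7, 135, 119 and 148 CPM in control livers (log2 -0.56 ± 0.09, adjusted p = 0.00225). Klkb1, plasma kallikrein, had 271, 267, 281 and 241 CPM in furan and 357, 358, 353 and 357 CPM in control livers (log2 -0.43 ± 0.07, adjusted p = 0.0025). C2 and F5 fell too (log2 -0.47 ± 0.09 and -0.497 ± 0.11, adjusted p = 0.00511 and 0.0154), the call of F5 ending without furan 44 (adjusted p = 0.0581). The whole list summed to 18497 to 20323 CPM in furan livers and 20776 to 22019.5 CPM in control livers. Without furan 44, 4 of these genes fell. Among 23 acute phase genes, Saa1, serum amyloid A, had 64.8, 66.5, 57.5 and 52 CPM in furan and 34.2, 39.6, 33.4 and 25.3 CPM in control livers (log2 0.86 ± 0.13, adjusted p = 0.00139), and Lcn2 and Saa2 were the other rises. The call of Saa2 ended without furan 42, furan 43, furan 44, control 2 or control 3 (adjusted p = 0.059 to 0.0921) and with robust dispersions (0.0627). Saa1 and Saa2 share 32.1% and 31.8% of their words with other genes.

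Receptors for metabolic hormones and glucose control genes fell in 8 of 22 tested members, and 21 had a change below 0 (median -0.29). Adrb3, the beta-3 adrenergic receptor, had 21.3, 22.3, 27.97 and 27.5 CPM in furan and 59.3, 45.1, 64.03 and 43.9 CPM in control livers (log2 -1.10 ± 0.14, adjusted p = 0.000464). Gcgr, the glucagon receptor, had 334, 367, 345 and 327 CPM in furan and 494, 475, 466 and 473 CPM in control livers (log2 -0.48 ± 0.07, adjusted p = 0.000992). Ghr, the growth hormone receptor, had 309, 307, 303 and 316 CPM in furan and 377, 387, 401 and 379.8 CPM in control livers (log2 -0.32 ± 0.06, adjusted p = 0.00756). Adra1b, the alpha-1B adrenergic receptor, had 41.96, 46.03, 50.3 and 50.6 CPM in furan and 62.99, 66.8, 62.4 and 62.3 CPM in control livers (log2 -0.43 ± 0.08, adjusted p = 0.0075). The related Adra1a was low, at 1.19, 1.56, 1.86 and 2.86 CPM in furan and 3.51, 7.23, 5.29 and 5.12 CPM in control livers (log2 -1.49 ± 0.31, adjusted p = 0.00989). Its call ended in the 6 animals that also had frozen libraries (adjusted p = 0.0808). Pck1, Lepr and Insr were the other falls, and without furan 44 the list had 5.

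Transport and lipid genes followed several directions. Of 24 bile acid genes, 5 fell and 1 rose: the uptake carriers Slco2b1 (-0.77 ± 0.08), Slco1b2 (-0.51 ± 0.09), Slc10a1 (-0.42 ± 0.10) and Slco1a1 (-0.90 ± 0.22) were among the falls, with adjusted p of 6.78e-05, 0.00417, 0.0206 and 0.0244, and Slc22a7 rose (0.59 ± 0.15, adjusted p = 0.0251). Slco2b1 had 111, 108, 113 and 125 CPM in furan and 186, 205, 187 and 199 CPM in control livers. The call of Slc10a1 ended without furan 42, furan 43, furan 44 or control 3 (adjusted p = 0.0562 to 0.0744), that of Slco1a1 without furan 41, furan 44, control 2 or control 3 (adjusted p = 0.0629 to 0.0761) and with robust dispersions (0.127), and that of Slc22a7 without furan 41, furan 43, furan 44 or control 4 (adjusted p = 0.0542 to 0.0761). The falls numbered 3 without furan 42, furan 43, furan 44, control 2 or control 3 and 8 without furan 41, furan 44 and control 6. Of 21 lipogenesis genes, 5 fell, among them Dgat2, which makes triglyceride, with 579, 537, 566 and 512 CPM in furan and 719, 742, 663 and 872 CPM in control livers (log2 -0.45 ± 0.09, adjusted p = 0.00748). Acacb, which makes malonyl-CoA, had 43.7, 38.3, 37.3 and 32.4 CPM in furan and 66.7, 66.7, 49.3 and 105 CPM in control livers (log2 -0.92 ± 0.18, adjusted p = 0.00829). In this list 3 fell without furan 43 and 8 without furan 41, furan 44 and control 6. Fatty acid oxidation had 3 falls of 26 (Acaa1b, Acaa1a and Acot1). The calls of Acaa1a and Acot1 ended without furan 43 (adjusted p = 0.051 and 0.057), and that of Acot1 also with robust dispersions (0.0819). There were 8 without furan 41, 6 without control 6, 12 without furan 41, furan 44 and control 6, and 1 without furan 43. Cholesterol synthesis had 4 rises of 25 that included Lss (0.58 ± 0.12), Sqle (0.64 ± 0.14) and Insig1 (0.44 ± 0.12). The call of Insig1 ended without furan 41, furan 43, furan 44, control 2, control 3 or control 4 (adjusted p = 0.0826 to 0.11). The list had 2 rises without furan 41, furan 43, furan 44, control 2 or control 4, 7 without control 6 and 1 without furan 41, furan 44 and control 6. Lipc, hepatic lipase, had 132, 149, 133 and 139 CPM in furan and 222, 229, 211 and 192 CPM in control livers (log2 -0.63 ± 0.08, adjusted p = 0.000464).

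Of 20 retinoid genes, 2 rose and 2 fell. The falls numbered 5 without furan 41, furan 44 and control 6, and 1 without furan 42, furan 43, furan 44, control 3 or control 4. Rdh9, a retinol dehydrogenase, had 79.2, 88.6, 81.04 and 74.6 CPM in furan and 167, 129.7, 132 and 127 CPM in control livers (log2 -0.78 ± 0.10, adjusted p = 0.000464), and 92.3% of its words occur in other genes. Of 28 genes known to differ between male and female mouse liver, 5 rose (Cyp2a4, Mup20, Gstp1, Cyp3a16 and Cyp3a44). The 7 that fell were Sult3a1, Cyp2b13, Elovl3, Slco1a1, Cyp2b9, Cyp2d9 and Serpina1e. Whether these changes leaned toward the pattern of either sex was not tested. Mup20, the male urinary protein darcin, had 58.02, 70.8, 154 and 91.3 CPM in furan and 26.3, 20.99, 20.7 and 10.95 CPM in control livers (log2 2.23 ± 0.29, adjusted p = 0.000567), with furan 43 highest; 50.5% of its words occur in other genes. Sult3a1, a sulfotransferase of female liver, had 10.6, 8.26, 7.38 and 11.4 CPM in furan and 17.5, 23.3, 18.3 and 11.8 CPM in control livers (log2 -0.93 ± 0.20, adjusted p = 0.0116). The falls of this list numbered 2 without control 2 or control 3, 3 without furan 44, and 4 without furan 42, furan 43 or control 4. Of 19 clock genes, Per3 fell (37.6, 40.4, 40.1 and 40.8 CPM in furan and 54.5, 55.3, 58.2 and 90.9 CPM in control livers; log2 -0.70 ± 0.14, adjusted p = 0.0104), with control 6 far above the other controls, and Arntl and Cry1 rose (1.65 ± 0.38 and 0.92 ± 0.26, adjusted p = 0.0173 and 0.0432). The call of Arntl ended without furan 44 (adjusted p = 0.0627), and that of Cry1 without furan 41, furan 42, furan 43, furan 44, control 3 or control 4 (adjusted p = 0.0597 to 0.117).

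Among called genes with separate groups and 5 CPM or more in 1 group, the deepest falls were at low to middling levels. Serpina1e, with log2 -1.63 ± 0.45 and a control mean of 2012 CPM, was left out of this ranking because its groups overlapped. B930025P03Rik, a transcript whose role is not given in the files, had 1.897, 0.718, 2.23 and 1.66 CPM in furan and 11.4, 13.3, 11.96 and 12.4 CPM in control livers (log2 -2.88 ± 0.25, adjusted p = 2.6e-05). Lect1, which encodes the secreted protein chondromodulin, had 1.36, 1.197, 1.38 and 1.305 CPM in furan and 7.46, 6.93, 5.29 and 7.51 CPM in control livers (log2 -2.36 ± 0.22, adjusted p = 4.42e-05), the 4 furan values lying within 0.2 CPM of each other. Pcp4l1, a PCP4-like protein, had 10.5, 12.4, 14.4 and 13.6 CPM in furan and 36.2, 33.6, 36.1 and 44.8 CPM in control livers (log2 -1.56 ± 0.12, adjusted p = 2.16e-05). Cyp46a1, the cholesterol 24-hydroxylase, was the most abundant of the 15 largest falls, with 176, 102, 126 and 147 CPM in furan and 278, 347, 405 and 369.9 CPM in control livers (log2 -1.34 ± 0.15, adjusted p = 0.000219). Tlr5, the flagellin receptor, had 1.96, 1.92, 2.15 and 1.305 CPM in furan and 2.78, 5.46, 4.85 and 10.2 CPM in control livers (log2 -1.64 ± 0.35, adjusted p = 0.0127), control 6 being far above the next control; without furan 41, furan 44 and control 6 its adjusted p was 0.105. Tlr12 fell as well (-1.30 ± 0.25, adjusted p = 0.00738), and the other 14 tested Toll-like receptor and adaptor genes gave no call. The rest of the 15 were Cpsf4l, Ncmap, Adam11, Slc17a8, AW549542, Tppp and Ptgds beside Rad51b, Adra1a and Sult1c2. Genes just outside these lists had changes of 1.90 to 1.63 on the rising and -1.32 to -1.27 on the falling side. A further 10 genes of at least 5 CPM had changes as large as 1.18 to 1.90 in size but adjusted p of 0.0501 to 0.450.

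Car15, a carbonic anhydrase, had 7.53, 6.11, 5.96 and 5.02 CPM in furan and 0.946, 1.03, 1.27 and 2.12 CPM in control livers (log2 2.24 ± 0.28, adjusted p = 0.000459), with 73.7% of its words in a second annotated gene. Gm11974, an uncharacterised transcript, had 9.84, 16.5, 13.4 and 15.6 CPM in furan and 2.89, 2.51, 3.03 and 3.18 CPM in control livers (log2 2.26 ± 0.19, adjusted p = 2.16e-05).

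**Figure D4:**
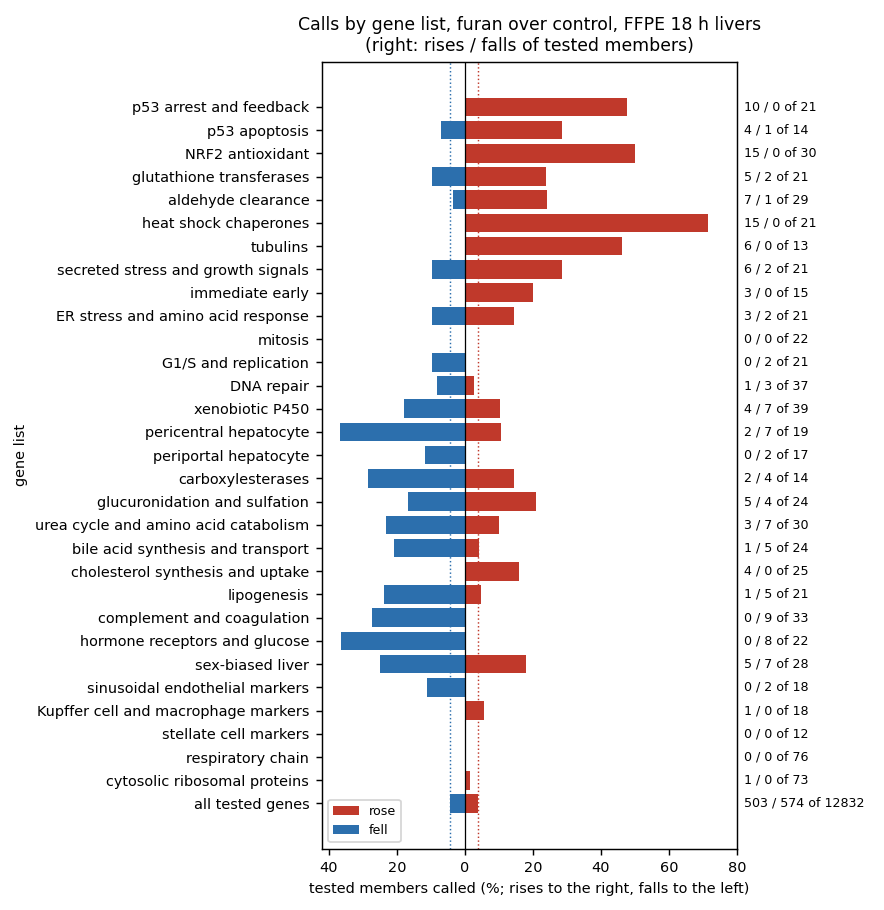
Share of tested members that rose (red, right) or fell (blue, left) in the gene lists drawn here, with the counts at the right edge as rises / falls of tested members; dotted lines mark the shares among all tested genes. Heat shock chaperones, NRF2 antioxidant genes and p53 arrest genes have the longest bars to the right among the lists drawn, and pericentral hepatocyte and hormone receptor genes the longest to the left.

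The list of NF-kB targets and chemokines had 3 rises and 1 fall among 19 genes, against 3.92% rises and 4.47% falls among all tested genes. Cxcl10, a chemokine that draws T cells, had 3.97, 8.98, 7.38 and 8.83 CPM in furan and 2.504, 3.15, 3.91 and 2.74 CPM in control livers (log2 1.24 ± 0.26, adjusted p = 0.0119). Icam1, the leukocyte adhesion receptor, had 20.7, 25.3, 24.3 and 27.1 CPM in furan and 19.5, 14.7, 18.3 and 14.2 CPM in control livers (log2 0.54 ± 0.13, adjusted p = 0.0193). Cxcl1, a neutrophil chemokine, rose by 0.73 ± 0.21 with overlapping groups (adjusted p = 0.0498), and Nfkbia, the NF-kB inhibitor, had 71.1, 81.4, 84.04 and 74.3 CPM in furan and 102, 91.5, 95.1 and 135 CPM in control livers (log2 -0.44 ± 0.12, adjusted p = 0.0324). The call of Icam1 ended without furan 43, furan 44 or control 3 (adjusted p = 0.0516 to 0.069), that of Cxcl1 without furan 41, furan 42, furan 43, control 2, control 3 or control 4 (adjusted p = 0.0942 to 0.151) and that of Nfkbia without furan 41, furan 42, furan 43, furan 44 or control 2 (adjusted p = 0.0558 to 0.0967). Of 30 hepatocyte transcription factors, Hnf4a, the hepatocyte master regulator, was the single rise, with 642, 605, 548 and 576 CPM in furan and 493, 471, 461 and 451 CPM in control livers (log2 0.34 ± 0.07, adjusted p = 0.0124). Nr1i3 and Stat5b fell, and the call of Stat5b ended without furan 41, furan 42, furan 44, control 2, control 3 or control 4 (adjusted p = 0.0562 to 0.107). The rises and falls were 3.33% and 6.67% of these factors, near the shares among all tested genes. Of 18 apolipoprotein and lipase genes, Lipc, Apoa5 and Apoc4 fell and Apoc2 rose. Apoa5, which activates triglyceride clearance, had 1505, 1213, 1269 and 1295 CPM in furan and 1541, 1654, 1723 and 1838 CPM in control livers (log2 -0.35 ± 0.09, adjusted p = 0.0216), and the falls numbered 1 without furan 42, furan 43, furan 44 or control 4.

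Markers of other cell types gave few calls. All 18 sinusoidal endothelial markers had a change below 0 (median -0.26), their sum was 620 to 679 CPM in furan livers and 757 to 799.7 CPM in control livers, and Stab2, a scavenger receptor of these cells, fell, with 76.99, 78.7, 80.2 and 66.3 CPM in furan and 113, 107, 109 and 127 CPM in control livers (log2 -0.59 ± 0.09, adjusted p = 0.00132); Oit3 was the other fall, a call that ended without furan 42, furan 43, furan 44, control 2 or control 4 (adjusted p = 0.0708 to 0.0973), and 5 of these markers fell without control 6. Of 18 tested Kupffer cell and macrophage markers none but Mmp12, macrophage elastase, passed, with 2.61, 2.57, 4.78 and 3.76 CPM in furan and 0, 0.0492, 0.11 and 0.0883 CPM in control livers (log2 5.71 ± 0.54, adjusted p = 5.28e-05). The summed macrophage markers were 502 to 642 CPM in furan livers and 531 to 598 CPM in 3 control livers, with control 4 at 1091 CPM. No stellate cell (12 tested), T and NK cell (7), B and plasma cell (6), neutrophil (3) or bile duct (8) marker was called. Skeletal muscle markers summed to 62.7 CPM in furan 44 and 10.1 to 11.1 CPM in the other furan livers, against 10.4 to 19.1 CPM in control livers, and none of 3 tested was called. Cidec, the 1 adipocyte marker tested, rose (log2 1.28 ± 0.34, adjusted p = 0.0329), and the adipocyte sum was 23.5 CPM in furan 44. Its call ended without furan 41, furan 44, control 3 or control 4 (adjusted p = 0.0748 to 0.124). The part of these cells in the changes above was not tested.

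Several gene families of the basic cell machinery gave at most 1 call each way. None of 76 respiratory chain genes was called at an adjusted p under 0.05 in edgeR's test, and their summed level was 15347 to 17464 CPM in furan livers and 15411 to 16621 CPM in control livers. Rps27l was the 1 of 73 cytosolic ribosomal protein genes that rose, with 202, 185, 202 and 184 CPM in furan and 143, 151, 145 and 123 CPM in control livers (log2 0.46 ± 0.08, adjusted p = 0.00421); it is itself a known p53 target. Of 38 proteasome genes, Psmd5 rose and Psmb9 fell (0.403 ± 0.08 and -0.39 ± 0.10). The call of Psmb9 ended without furan 41, furan 42, furan 44, control 2, control 3 or control 4 (adjusted p = 0.0597 to 0.0922). Of 16 genes often used as references, Polr2a, the large subunit of RNA polymerase II, had 62.3, 59.6, 57.1 and 64.5 CPM in furan and 39.3, 41.1, 40.4 and 50.5 CPM in control livers (log2 0.51 ± 0.09, adjusted p = 0.00561). Tfrc, the transferrin receptor, had 19.9, 17.9, 15 and 28.4 CPM in furan and 9.74, 10.4, 10.7 and 12.1 CPM in control livers (log2 0.92 ± 0.17, adjusted p = 0.00644). No interferon-stimulated gene of 23 was called.

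Of 174 genes that were called and chosen for naming, 88 lost the call in 1 model of all 6 groups, which shares its estimate of spread with the 3 wk pieces, 46 in the 6 animals that also had frozen libraries and 10 with robust dispersions. Among genes named above, the 6 animals ended the calls of Tlr5, Adra1a, Tppp, Adh1, Glud1, Serpina1e, Serpina1c, Slc38a3, Ces3a, Uox, Trib3, Chac1, Tuba1b, Rad51d, Cyp3a16, Otc, Slc10a1, Slco1a1 and Dgat2. They also ended those of Acaa1a, Acot1, Afp, Oit3, Hnf4a, Cxcl10, Icam1, Nfkbia, Cxcl1, Saa2, Apoa5, Apoc4, Stat5b, Sult3a1, Arntl, Cry1, Adra1b and Psmb9 (adjusted p = 0.0533 to 0.204 over all of these). Without furan 41, furan 44 and control 6, calls ended for Tlr5, Slc38a3, Bag3, Chac1, Ddit3, Brca2, Rad51d, Pck1, Adh7, Slco1a1, Slc22a7, Lss, Sqle, Insig1, Cidec, Icam1, Nfkbia, F5, Arntl, Cry1, Psmd5 and Psmb9 (adjusted p = 0.052 to 0.305).

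The furan response of the 18 h pieces was set against that of the frozen and 3 wk pieces by testing the difference itself (treatment by piece interaction). The pieces come from the same animals and are not independent. Frozen libraries held 33101755 to 58048387 counts in furan and 44980028 to 52810289 in control livers, and 3 wk libraries 3895208 to 11780691 in furan and 3666173 to 10481659 in control livers, so depth differs with the piece. Taken alone, 1132 genes rose (8.21%) and 1030 fell (7.47%) in frozen pieces, 15.7% of 13794. In 3 wk pieces 36 rose (0.298%) and 63 fell (0.522%), 0.821% of 12064. Against frozen pieces no gene of 13739 had a response that passed edgeR's test (0%, lowest adjusted p = 0.661, 455 genes with an unadjusted p under 0.05), and the median SE of a difference was 0.21. DESeq2 called 1 gene, Smcr8. With the animal as a replicate block in edgeR's test, 1557 genes had an unadjusted p under 0.05, and the median SE was 0.18. Of these, 2 genes passed at an adjusted p of 0.0301. Dmbt1, an epithelial secreted scavenger receptor, had a difference of -7.13 ± 0.94 (18 h minus frozen). Ppp1r10, a subunit of protein phosphatase 1, had -0.82 ± 0.12. Dmbt1 had 6.697, 3.47, 48.9 and 22.4 CPM in furan and 161, 105, 0.771 and 20.7 CPM in control livers in the 18 h pieces, values that range widely within both groups. Against 3 wk pieces no gene of 13282 passed (0%, lowest adjusted p = 0.0650, 891 with an unadjusted p under 0.05), nor with the animal as a block, while DESeq2 called 97; the median SE was 0.47.

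The named genes show how far single responses differed in size without a call. Cdkn1a changed by 4.31 ± 0.14 in 18 h, 4.97 ± 0.10 in frozen and 4.12 ± 0.30 in 3 wk pieces (18 h minus frozen -0.64 ± 0.19, unadjusted p = 0.00367, adjusted p = 1). Phlda3 changed by 2.69 ± 0.29, 4.21 ± 0.26 and 3.88 ± 0.66 in the same order (difference -1.51 ± 0.45, unadjusted p = 0.00434, adjusted p = 1). Gsta1 changed by 3.14 ± 0.42, 5.71 ± 0.31 and 2.52 ± 1.56 (difference -2.51 ± 0.78, unadjusted p = 0.00565, adjusted p = 1). These 3 rises were nominally smaller in 18 h than in frozen pieces but did not pass the adjusted test, in a fit without the animal. With the animal as a replicate block, the interaction test gave Phlda3 a difference of -1.63 ± 0.30 (adjusted p = 0.0611). Gsta1 then had -2.28 ± 0.53 (adjusted p = 0.158) and Cdkn1a -0.62 ± 0.21 (adjusted p = 0.288). Gdf15, with 2.48 ± 0.23, 2.67 ± 0.35 and 2.61 ± 0.55, and B930025P03Rik, with -2.88 ± 0.25, -2.84 ± 0.24 and -3.05 ± 0.51, had close values in all 3. Smcr8 had 35.7, 42.2, 44.4 and 40.3 CPM in furan and 51.9, 57.1, 48.6 and 51.4 CPM in control livers in the 18 h pieces (log2 -0.36 ± 0.09, adjusted p = 0.0277), a fall, and a change of 0.32 ± 0.07 in frozen pieces (difference -0.67 ± 0.12, unadjusted p = 4.81e-05, adjusted p = 0.661).

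**Figure D5:**
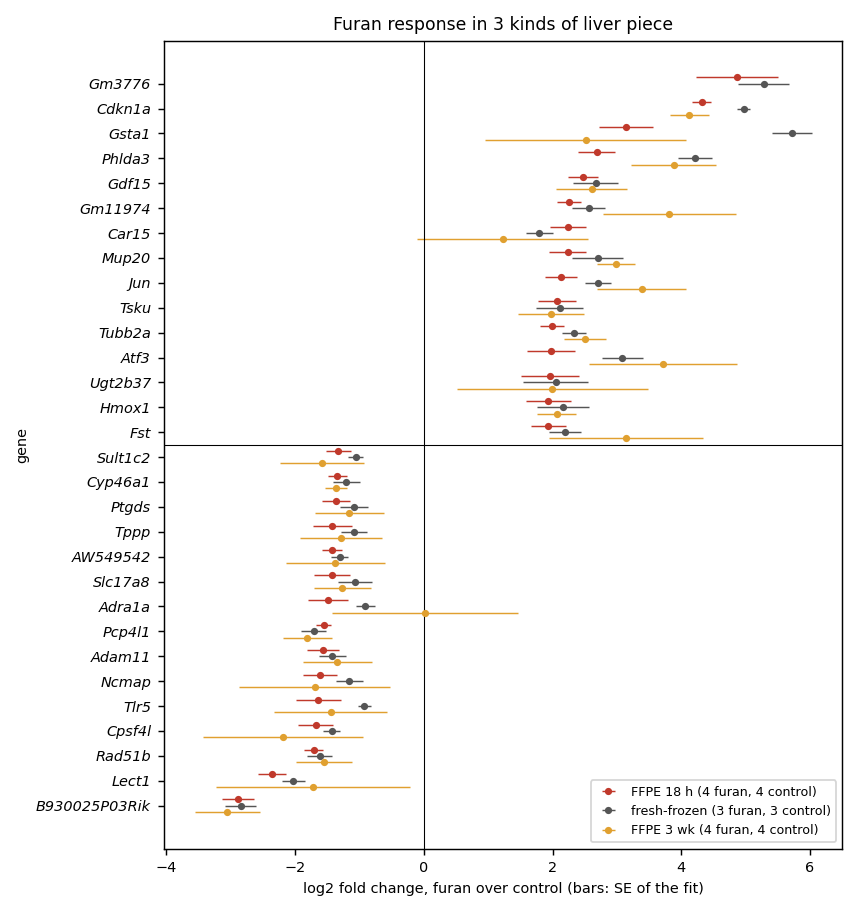
Log2 fold change (furan over control) with the SE of the fit for the 15 largest rises and 15 largest falls of the 18 h pieces, in 18 h FFPE (red), frozen (grey) and 3 wk FFPE (yellow) pieces of the same livers. The changes of a gene share their sign in all pieces tested except Adra1a (0.02 in 3 wk pieces), and Gsta1, Phlda3 and Cdkn1a have larger rises in frozen than in 18 h pieces; Gm3776 was not tested in 3 wk pieces.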

How the data were processed

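Poly(A)-selected RNA was sequenced from liver pieces of the same mice, and this text uses the 8 libraries of 18 h FFPE pieces, with 6 frozen and 8 FFPE 3 wk libraries for comparison. The authors deposited a table of raw read counts per gene symbol, 24015 genes by 24 columns. Per the submitters' processing notes, CASAVA 1.8.2, STAR 2.3.0 and featureCounts 1.4.4 were used with mouse build mm9. The kit named in the labels does not mark strand, so reads of a gene and an overlapping or antisense gene cannot be told apart, and 2 columns that match no label were not used here. Columns were given to samples by piece and animal number in the labels.

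Counts were filtered with filterByExpr, scaled with TMM and tested in edgeR 4.0.16 (R 4.3.3, quasi-likelihood F test, 4 furan against 4 control, no covariate); 12832 genes were tested and p-values adjusted over all of them (threshold 0.05). The SE was taken as the size of the log2 change divided by sqrt(F). The common dispersion was 0.0284, against 0.0150 in frozen and 0.336 in 3 wk pieces. Differences between pieces were interaction terms. Totals and Rn45s shares were compared by exact permutation. The fitting code was tested on counts simulated with set changes. Same-numbered pieces come from 1 animal: after group means were removed, 18 h and frozen pieces of an animal correlated at 0.389 to 0.506 over 9612 genes (6 of 6 best with their own) and 18 h and 3 wk pieces at 0.00978 to 0.272 (6 of 8). The furan and control animals differ, so the main comparison has no pairs.

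Named were the 15 largest rises and falls among called genes with 5 CPM or more in 1 group and separate groups, the 10 largest CPM differences each way, up to 5 called members of each list with the smallest p, and Cyp2e1, Alb, Nqo1, Cdkn1a, Mdm2 and Gstm1. The members, gene lists and rules were chosen with earlier results of these data known. Alternatives were DESeq2 1.42.0, RLE and upper-quartile scaling, other filters, robust dispersions, thinning, a required fold of 1.5 or more, 1 model over the 6 groups, Rn45s left out, the 6 animals also frozen, each library left out and, added after seeing the data, 3 libraries left out. Shared 50-nt words came from GENCODE M21 transcripts, and promoter windows from RefSeq (GRCm38), matched by symbol for 9667 tested genes. The share of words also found in other genes was 64.2% for Gsta2, 58.1% for Nr1i3, 58.0% for C2 and 51.6% for Hspb1. It was 48.3% for Jund, 46.2% for Acaa1b, 42.7% for Klkb1 and 41.7% for Ugt2b5. No coordinate of another build was used with the counts.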

Additional observations from a re-analysis of the deposited data

Results flagged for a closer look

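A library far from the other 3 of its group (a gap to its nearest neighbour, as a share of the group's range, beyond Dixon's critical value) was found in 24 of 382 groups of 4 values examined, over the named genes, library measures and marker sums. Chance gives about 1 in 20.

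Among library measures, control 6 had the Rn45s share of 37.3%, against 6.42% to 7.22% in the other controls (gap 0.974 of the range). Furan 41 had 876 genes with counts in no other library, against 100 to 200 (0.871), and control 3 had 51, against 113 to 121 (0.886). The Kupffer cell and macrophage markers summed to 1091 CPM in control 4, against 531 to 598 CPM (0.880). Skeletal muscle markers summed to 62.7 CPM in furan 44, against 10.1 to 11.1 CPM in the other furan livers (0.980), and to 19.1 CPM in control 2, against 10.4 to 11.5 CPM in the other controls (0.877).

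Furan 41 was high for Fgf21 (29.8 CPM, gap 0.903), Bhmt (999.6 CPM, 0.917), Txnrd1 (145 CPM, 0.918) and Otc (284 CPM, 0.904). Furan 42 was high for Rad51b (8.56 CPM, 0.849) and Lcn2 (33.6 CPM, 0.883) and low for Tlr12 (1.74 CPM, 0.875), Ddit3 (9.88 CPM, 0.964) and Insig1 (127 CPM, 0.882). Furan 44 was low for Prodh (137 CPM, 0.860). Control 6 was high for Hpd (4224 CPM, 0.869), Per3 (90.9 CPM, 0.899) and Polr2a (50.5 CPM, 0.843) and low for Otc (290.0 CPM, 0.8293). Control 2 was high for Ugt2b35 (83.2 CPM, 0.859) and Rdh9 (167 CPM, 0.859). Control 3 was high for Adra1b (66.8 CPM, 0.857), and control 4 low for Klkb1 (353 CPM, 0.843). Furan 43 gave none of the 24.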

How the results depend on the processing

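Of the 503 rises and 574 falls, no gene that had a value changed sign under any alternative run (988 to 1077 genes had one). These runs reused the libraries in which the genes were called, and 1012 of the genes had separate groups. A change of sign was therefore unlikely from the outset. DESeq2 (650 rises, 720 falls), RLE and upper-quartile scaling, either filter, robust dispersions, thinning and leaving out Rn45s kept both counts within 1.5 times. Requiring a fold of at least 1.5 left 42 rises and 21 falls, 1 model of all 6 groups 91 and 134, and the 6 animals also frozen 285 and 309. With 1 library left out, rises ran from 298 to 605 and falls from 335 to 680. The interaction against frozen pieces gave 0 calls, 2 with the replicate block (animal) and 1 with DESeq2; against 3 wk pieces it gave 0, 0 with the block and 97 with DESeq2, and both stayed at 0 with each library left out. The block changed no other call. Against frozen pieces, genes with an unadjusted p under 0.05 in edgeR's test numbered 455 without the block and 1557 with it. All 8 animals have both FFPE pieces, so animals with both pieces only were not run separately there. The difference in total counts (1190390, furan minus control) ran from -114309 (without furan 43) to 1960410, and that in Rn45s share (-3.90 points) from -6.58 to 3.72 (without control 6); the cause was not tested. Depth limits low genes: the median SE was 0.53 under 1 CPM and 0.08 at 100 CPM or more.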
